A study of Mus musculus with 4 samples.

Results

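The 34 genes described here carry fatty acids into mitochondria, oxidise them there and turn the product into ketone bodies, together with genes of acyl-CoA handling, microsomal omega-oxidation and 2 genes tied to the same programme. They were taken as a named list of symbols, chosen with earlier results of these data known. Each of the 34 was among the 22155 gene symbols of the deposited count table. All 34 were also among the 13309 genes that passed the filter on low counts, and the lowest count of any of them in any library was 114, for Acot1. Messenger RNA was sequenced from liver of C57BL/6 wild-type mice 8 to 10 weeks old. The gavage group, 2 libraries, was fed a Lieber-DeCarli liquid diet with 5% ethanol for 10 days, received 1 dose of ethanol at 5 g per kg of body weight and was killed 9 h after it. The ethanol-alone group, 2 libraries, is titled chronic ethanol alone, read here as no gavage. Its diet is taken from a treatment text that is the same for all 4 samples. Both groups thus carry the chronic ethanol exposure and neither shows liver without ethanol. The sources used here do not give the sex of the mice, a sham gavage or the hour at which the ethanol-alone mice were killed.

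In mitochondrial beta-oxidation, acyl-CoA synthetases activate fatty acids, the carnitine shuttle carries them across the inner membrane, and a repeating cycle of dehydrogenation, hydration, dehydrogenation and thiolysis shortens them. Electrons from the first step reach the respiratory chain through the electron transfer flavoprotein, and the acetyl-CoA released can be turned into ketone bodies, which the liver exports as fuel. In liver the nuclear receptor PPARα, activated by fatty acids, raises the transcription of many of these genes, and it acts as a heterodimer with RXR on direct repeats of AGGTCA spaced by a single base, called DR1 elements. Ethanol oxidation is known to shift the redox state of hepatocytes in a direction that slows beta-oxidation.

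Sequence is shown for stretches that bear on how these genes are controlled or paired. RefSeq promoter windows of GRCm38.p6, running from 250 bases before to 50 after a start, were matched by symbol for 26 of the 34 genes in 29 windows. The DR1 motif, AGGTCA followed by any base and AGGTCA again, was sought on both strands. With at most 2 mismatches it matched in 6 of these windows (20.7%) and in 3.86% of all 32851 windows. With no mismatch allowed, it matched in 0 of the 29 windows and in 0.04% of all windows. The closest match, with 1 mismatch, stood 67 bases before the RefSeq start of Fabp1, the gene of the liver fatty acid binding protein. That start, at 71199879, lies 52 bases downstream of the outermost GENCODE start, 71199827. The outermost GENCODE starts of Cd36 (17888801) and Creb3l3 (81098874), both on the minus strand, lie far upstream of the windows given below. The match of Slc25a20, on the plus strand, begins at base 7 counted from its RefSeq start. It thus lies after that start and after the outermost GENCODE start, 108662088. The 6 windows are given 5′ to 3′ on the strand of the gene, with the 13 matched bases in capitals; where the match lies on the other strand, it reads as the reverse complement.
Fabp1, chr6:71199804-71199832, match on the other strand: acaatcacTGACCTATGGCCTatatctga
Cd36, chr5:17835939-17835967, match on the other strand: tggttctcTGGCCTCTGACTTacttggat
Creb3l3, chr10:81092780-81092808, match on the gene's strand: ctgtaagtAGGGGAGAGGTCAcacagacc
Echs1, chr7:140116484-140116512, match on the gene's strand: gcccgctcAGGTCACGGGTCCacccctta
Etfa, chr9:55512300-55512328, match on the other strand: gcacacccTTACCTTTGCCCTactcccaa
Slc25a20, chr9:108662134-108662162, match on the gene's strand: ctgaatgtAGGTGAAAGGTCGgcggagcc
These matches describe letters in the windows and do not show binding. Fabp1 and Echs1, which hold such a match, are among the genes with the lowest p-values below, while Cd36, Creb3l3, Etfa and Slc25a20, which hold one too, are not.

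Hadha and Hadhb, the genes of the alpha and beta subunits of the mitochondrial trifunctional protein, are transcribed away from each other from neighbouring starts on chromosome 5. Their RefSeq starts, at 30154980 on the minus strand and 30155253 on the plus strand, are separated by 272 bases. The stretch between the outermost annotated ends of the genes is 85 bases long with 69.4% G and C, and is given on the plus strand with the 2 GC boxes (GGGCGG) in capitals. Because the genes share this stretch, their values are set side by side below.
Between Hadha and Hadhb, chr5:30155163-30155247: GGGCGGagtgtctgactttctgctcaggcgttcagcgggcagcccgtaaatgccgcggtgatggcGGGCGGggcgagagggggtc
GGGCGG, on either strand, was present in 20 of the 29 windows (69.0%) and in 35.7% of all windows. The estrogen-related receptor half-site TNAAGGTCA was found in 0 of the 29 windows and in 1.28% of all windows.
The upstream stretch of Fabp1, 198 bases that end before its outermost GENCODE start, is shown with its DR1 match in capitals because Fabp1 was the most abundant of the 34 genes.
Upstream of Fabp1, chr6:71199629-71199826, plus strand: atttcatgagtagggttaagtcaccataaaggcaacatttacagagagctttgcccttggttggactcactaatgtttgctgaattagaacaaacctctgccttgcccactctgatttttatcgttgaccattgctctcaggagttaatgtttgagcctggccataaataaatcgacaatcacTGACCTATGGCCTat

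Total counts ran from 28791281 to 30347558 per library, and values below are CPM, counts per 1000000 counts of the TMM-scaled library size. The libraries numbered 1 stood apart in both groups by RNA of other tissues. The summed level of 10 skeletal muscle markers was 916 and 1.33 CPM in gavage replicates 1 and 2, against 437 and 12.6 CPM in ethanol-alone replicates 1 and 2. Of 9 adipose markers, left after Car3, which liver makes in quantity, was taken out with its value known, the sum was 120 and 23.9 CPM with gavage, against 84.5 and 23.5 CPM with ethanol alone, and 4 of the 9 were at 0 in each library numbered 2. The hepatocyte markers, among them Alb, identified all libraries as liver. Their sum lay lower after gavage, at 99758 and 120381 CPM against 153727 and 128660 CPM with ethanol alone. Alb made up most of it, at 83277 and 99816 CPM with gavage, against 110898 and 100866 CPM with ethanol alone. All 10 of 10 markers were below a log2 fold change of 0, beside 48.3% of all genes tested. Apoa1 and Serpina1a overlapped between groups, and the other hepatocyte markers did not. Kupffer cell markers summed to 371 and 412 CPM with gavage, against 633 and 637 CPM with ethanol alone, also with 10 of 10 below 0. The share of counts from 13 mitochondrially encoded genes was 4.27% and 4.72% with gavage, against 3.52% and 5.07% with ethanol alone. The part of these differences in the results below was not tested. The counts, the median and the genes called by DESeq2 are therefore also given for single pairs of libraries or without each library. Whether replicate libraries were made from separate mice is not stated, and p-values rest on the spread between these libraries alone.

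The genes of fatty acid oxidation lay lower after the gavage almost throughout, by amounts that no single gene carried past the main test. The log2 fold change of gavage over ethanol alone was below 0 for 31 of the 34 genes, with a median of -0.48, while over all genes tested 48.3% lay below 0 and the median was 0.02. In 24 of the 34 genes both gavage libraries lay below both ethanol-alone libraries, beside 27.2% of all genes tested, and in 0 of 34 both lay above, beside 27.5%. The edgeR quasi-likelihood test called 0 of 34 at an adjusted p under 0.05, beside 0% of all genes tested, and the lowest adjusted p of the 34 was 0.193, for Acsl1. At an unadjusted p under 0.05 it held 6 lower, beside 9.85% of all genes that lay lower at that level, and 0 higher, beside 8.91%. DESeq2, used as an alternative test, called the same 6 lower at an adjusted p under 0.05, beside 4.9% of all genes, and 0 higher, beside 3.94%. They were Fabp1, Acsl1, Acot1, Acads, Echs1 and Eci1. In whole liver, fewer cells of a type and less RNA per cell cannot be told apart.

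**Figure D1:**
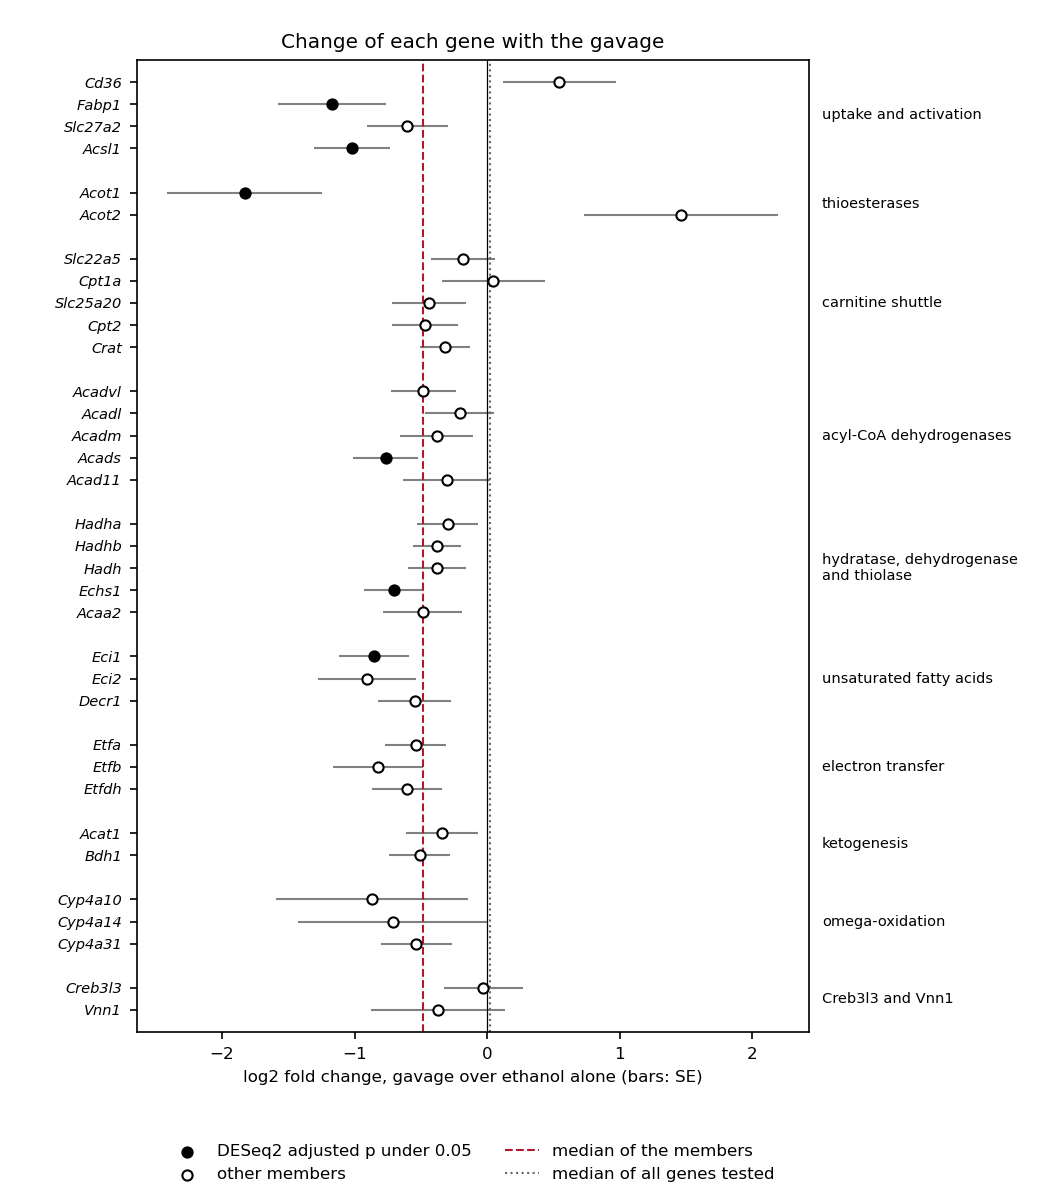
Log2 fold change of gavage over ethanol alone for each of the 34 genes, grouped by role, with bars of 1 SE from the edgeR fit; filled points passed DESeq2 at an adjusted p under 0.05. Of the 34 points, 31 lie left of 0, and the dashed median of the 34 (-0.48) stands left of the dotted median of all genes tested (0.02).

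The gavage libraries differed from each other in a direction that all 34 genes shared, and the ethanol-alone libraries did not. Gavage replicate 1 was below gavage replicate 2 in 34 of 34 genes, beside 54.3% of all genes tested, with a median log2 difference of -0.51, against -0.03 over all genes. Ethanol-alone replicate 1 was above ethanol-alone replicate 2 in 22 of 34 genes, beside 50.3% of all genes. The median log2 ratio of gavage to ethanol alone was therefore -0.79 between the libraries numbered 1, with 32 of 34 genes lower, and -0.17 between the libraries numbered 2, with 28 of 34 lower. Without gavage replicate 1 the median was -0.23 with 25 of 34 genes below 0, and without gavage replicate 2 it was -0.77 with 33 of 34 below 0. The median was thus below 0 with either gavage library left out, and smaller in size without replicate 1. Leaving out a library leaves 1 in its group, which is then assumed to vary like the other group. In such fits DESeq2 called 1 of the 34 without gavage replicate 1, which was Acot2 and lay higher, beside 1.8% of all genes. It called 4 without gavage replicate 2, all lower, beside 3.66% of all genes, and 0 without ethanol-alone replicate 1, beside 2.72%. Without ethanol-alone replicate 2 it called 5 lower and Cd36 higher, beside 9.2% of all genes. Of the 6 genes called with all libraries, 0, 2, 0 and 3 were among those called.

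**Figure D2:**
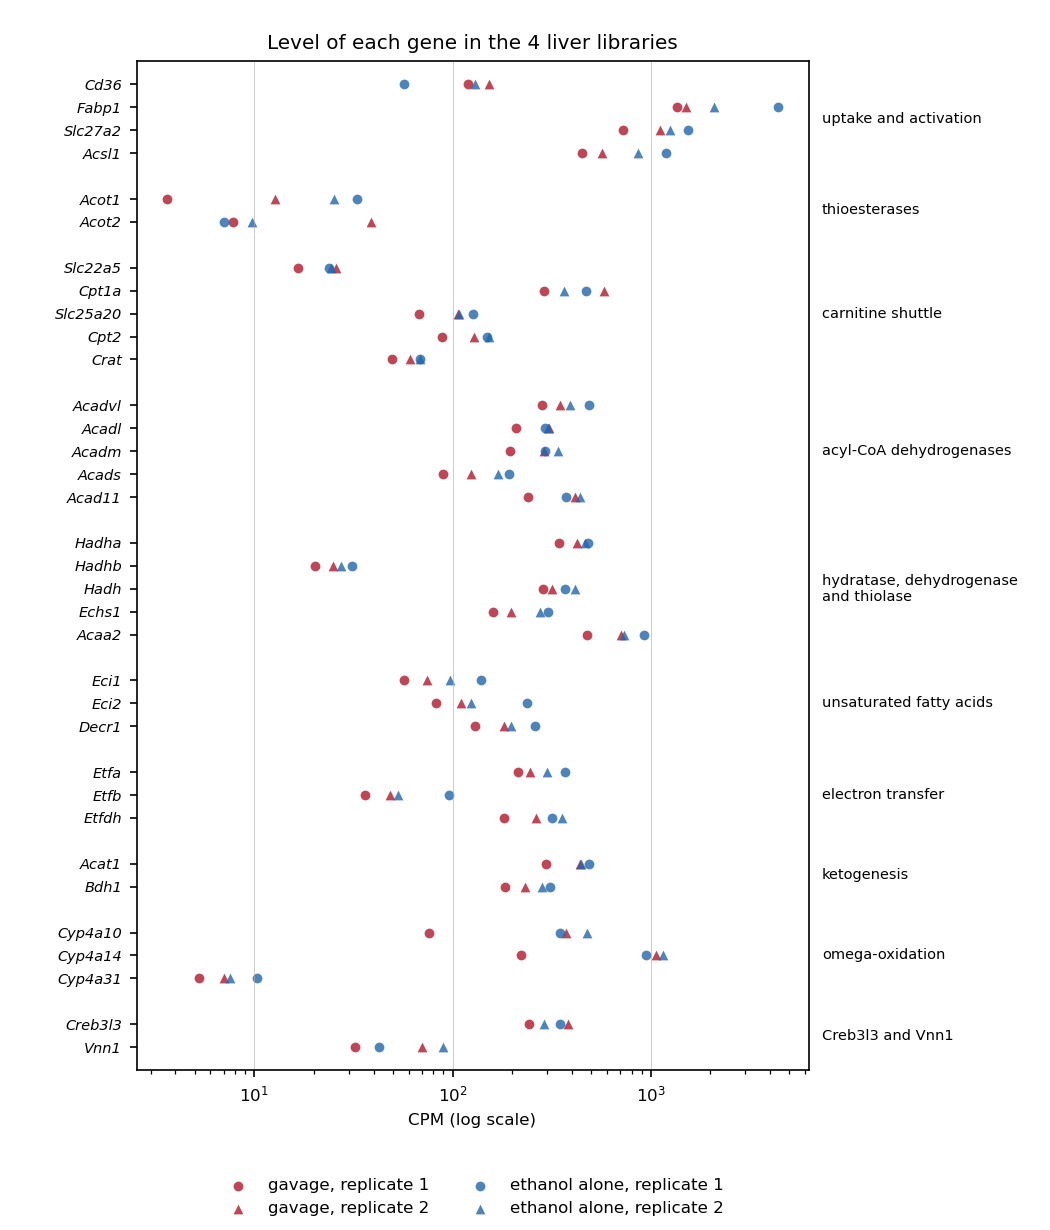
CPM on a log axis of each of the 34 genes in the gavage libraries (red) and the ethanol-alone libraries (blue), with circles for replicate 1 and triangles for replicate 2. In every row the red circle lies left of the red triangle, and in 24 rows both red points lie left of both blue points.

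Among the genes of uptake and activation, 3 of 4 lay lower, beside 48.3% of all genes tested, and Cd36 was the exception. Fabp1 (chromosome 6, 71199827 to 71205023, GENCODE M21 on GRCm38), whose protein binds fatty acids in the hepatocyte cytosol, had 1355 and 1514 CPM in gavage libraries, against 4381 and 2075 CPM in ethanol-alone libraries. The groups did not overlap, and ethanol-alone replicate 1 stood far above the other 3 libraries. The log2 fold change was -1.17 (SE 0.41), with an edgeR adjusted p of 0.238 and a DESeq2 adjusted p of 0.0246. Between the libraries numbered 2 the log2 ratio was -0.46.

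Acsl1 (chromosome 8, 46471037 to 46536051), the main long-chain acyl-CoA synthetase of liver, had 448 and 569.9 CPM with gavage, against 1198 and 863 CPM with ethanol alone. Every gavage value lay below every ethanol-alone value, while the ethanol-alone libraries stood further apart in CPM than the groups did at their nearest. The log2 fold change was -1.02 (SE 0.28; edgeR adjusted p = 0.193, DESeq2 adjusted p = 0.00424), and the log2 ratio between the libraries numbered 2 was -0.60. Slc27a2, a fatty acid transport protein with acyl-CoA synthetase activity for very long chains, averaged 922 ± 277 CPM with gavage and 1398 ± 209 CPM with ethanol alone (SD, n = 2 each). Cd36, a membrane receptor for long-chain fatty acids that adipocytes, macrophages and endothelium also make, had 120 and 153 CPM with gavage, against 56.6 and 130.3 CPM with ethanol alone. Its groups overlapped, and the low value was that of ethanol-alone replicate 1 (log2 fold change 0.54, SE 0.43, edgeR adjusted p = 0.524).

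The thioesterases Acot1 and Acot2, which hydrolyse acyl-CoA in the cytosol and in mitochondria, lie side by side on chromosome 12 and had opposite signs. Acot1 (84009490 to 84018371) had 3.63 and 12.8 CPM with gavage, against 32.9 and 25.3 CPM with ethanol alone. Acot2 (83987861 to 83993873) had 7.83 and 38.7 CPM with gavage, against 7.07 and 9.78 CPM with ethanol alone. For Acot1 the groups did not overlap, and for Acot2 gavage replicate 2 alone stood above the rest. The log2 fold change was -1.83 for Acot1 (SE 0.59; edgeR adjusted p = 0.218, DESeq2 adjusted p = 0.0161) and 1.46 for Acot2 (SE 0.73; edgeR adjusted p = 0.339, DESeq2 adjusted p = 0.154). The log2 ratio of Acot1 between the libraries numbered 2 was -0.99, and without gavage replicate 2 the log2 fold change of Acot2 was -0.11. The ratio of Acot1 to Acot2 counts within a library was 0.463 and 0.331 with gavage, against 4.66 and 2.59 with ethanol alone. Of the 50-base windows of the longest Acot1 transcript, 23.7% occur unchanged in Acot2, and 24.5% of those of Acot2 occur in Acot1, so the counting could have split their reads. Summed, Acot1 and Acot2 stood at 11.5 and 51.5 CPM with gavage, against 40 and 35.1 CPM with ethanol alone, which overlap.

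The carnitine genes showed smaller differences. Cpt1a (chromosome 19, 3322334 to 3385733), the liver carnitine palmitoyltransferase of the outer membrane and the regulated entry step, had 288 and 578 CPM with gavage, against 472 and 367 CPM with ethanol alone. The gavage libraries bracketed the ethanol-alone libraries, with replicate 1 below and replicate 2 above, so that no shift of the group could be read (log2 fold change 0.05, SE 0.39, edgeR adjusted p = 0.959). Cpt1b, the muscle isoform, had 0.446 and 0.133 CPM with gavage, against 0.403 and 0.231 CPM with ethanol alone, far under Cpt1a in each library, the ones with muscle RNA included. Cpt2, the inner-membrane transferase, averaged 109 ± 28.6 CPM with gavage and 150 ± 2.6 CPM with ethanol alone, and Slc25a20, the carnitine-acylcarnitine carrier, 87.1 ± 27.1 CPM with gavage and 118 ± 13.5 CPM with ethanol alone. Crat, carnitine acetyltransferase, averaged 55.3 ± 8.29 CPM with gavage and 68.9 ± 0.0854 CPM with ethanol alone. In these 3 genes both gavage libraries lay below both ethanol-alone libraries, beside 27.2% of all genes tested. Their edgeR adjusted p-values were 0.367, 0.435 and 0.411. Slc22a5, the carnitine transporter of the plasma membrane, overlapped between groups (21.2 ± 6.45 CPM with gavage and 24 ± 0.491 CPM with ethanol alone), and 26.9% of its 50-base windows occur in Slc22a21.

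All 5 acyl-CoA dehydrogenases, the flavoenzymes of the first step, had log2 fold changes below 0, beside 48.3% of all genes tested. The one with the lowest p acts on the shortest chains. Acads (chromosome 5, 115110299 to 115119346), the short-chain enzyme, had 89.5 and 124 CPM with gavage, against 193 and 169 CPM with ethanol alone. The groups did not overlap, and its log2 fold change was -0.76 (SE 0.25; edgeR adjusted p = 0.218, DESeq2 adjusted p = 0.0338), with a log2 ratio of -0.45 between the libraries numbered 2. Acadvl, the very long-chain enzyme, had 284 and 348 CPM with gavage, against 490.3 and 391 CPM with ethanol alone, again without overlap (log2 fold change -0.48, SE 0.25, edgeR adjusted p = 0.352). Its exons overlap those of Dvl2 on the opposite strand over 42.9% of their bases, and Dvl2 itself stood at 5.95 and 6.05 CPM with gavage, against 7.69 and 5.62 CPM with ethanol alone. Acadm, the medium-chain enzyme, averaged 243 ± 66.3 CPM with gavage and 316 ± 32.2 CPM with ethanol alone. Acad11 averaged 328 ± 125 CPM with gavage and 406 ± 46.4 CPM with ethanol alone, so that its mean was above that of Acadvl with gavage and below it with ethanol alone. Acadl, the long-chain enzyme, and Acad11 overlapped between groups, at log2 fold changes of -0.21 (SE 0.26) and -0.31 (SE 0.33), and without gavage replicate 1 both values were 0.04.

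The 5 enzymes that complete the cycle were each lower in both gavage libraries than in both ethanol-alone libraries, beside 27.2% of all genes tested. Echs1 (chromosome 7, 140105710 to 140116476), the short-chain enoyl-CoA hydratase, had 160 and 197 CPM with gavage, against 304 and 276 CPM with ethanol alone. The gap was wider than the spread within either group (log2 fold change -0.70, SE 0.22; edgeR adjusted p = 0.218, DESeq2 adjusted p = 0.0203), and between the libraries numbered 2 the log2 ratio was -0.49. Acaa2, the mitochondrial thiolase, had 476 and 706 CPM with gavage, against 926 and 729 CPM with ethanol alone. Here gavage replicate 2 came close to ethanol-alone replicate 2, and the log2 fold change was -0.49 (SE 0.30, edgeR adjusted p = 0.421). Hadh, the hydroxyacyl-CoA dehydrogenase of shorter chains, averaged 303 ± 22.5 CPM with gavage and 394 ± 32.5 CPM with ethanol alone, and its log2 ratio was close between the pairs of libraries, at -0.37 and -0.39.

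The subunit genes of the trifunctional protein, which share the stretch printed above, kept a narrow ratio. Hadha had 345 and 425 CPM with gavage, against 484 and 463 CPM with ethanol alone. Hadhb had 20.3 and 24.9 CPM with gavage, against 31.3 and 27.5 CPM with ethanol alone. The ratio of Hadhb to Hadha was 0.059 and 0.0586 with gavage, against 0.0646 and 0.0592 with ethanol alone, and the log2 fold changes were -0.38 (SE 0.18) for Hadhb and -0.30 (SE 0.23) for Hadha. Per kb of merged exon, Hadha averaged 44.1 CPM with gavage and 54.2 CPM with ethanol alone, and Hadhb 3.43 CPM with gavage and 4.45 CPM with ethanol alone. Of the 50-base windows of the Hadhb transcript, 61.5% occur unchanged in Gm13910, against 0.7% shared with any other gene for Hadha, so the counting could have left out or split reads of Hadhb.

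The auxiliary enzymes of unsaturated fatty acids lay lower without overlap in 3 of 3, beside 27.2% of all genes tested. Eci1 (chromosome 17, 24426641 to 24439348), an enoyl-CoA isomerase, had 56.9 and 74.3 CPM with gavage, against 139 and 97.6 CPM with ethanol alone (log2 fold change -0.85, SE 0.27; edgeR adjusted p = 0.213, DESeq2 adjusted p = 0.0373). Ethanol-alone replicate 1 was the highest library, and the log2 ratio was -0.39 between the libraries numbered 2. Decr1, the dienoyl-CoA reductase, had 129.7 and 183 CPM with gavage, against 260.1 and 196 CPM with ethanol alone. Its replicates numbered 2 nearly met (log2 fold change -0.55, SE 0.28, edgeR adjusted p = 0.346). Eci2, a second isomerase that also reaches peroxisomes, averaged 96.3 ± 19 CPM with gavage and 180.3 ± 79.9 CPM with ethanol alone, the wide spread again set by ethanol-alone replicate 1.

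The electron transfer genes were lower without overlap in 3 of 3 as well, beside the same 27.2% of all genes tested. Etfa, the alpha subunit of the flavoprotein, had 213 and 246 CPM with gavage, against 369 and 298 CPM with ethanol alone (log2 fold change -0.54, SE 0.23, edgeR adjusted p = 0.289). Etfdh, the dehydrogenase that passes its electrons to ubiquinone, averaged 223 ± 56.8 CPM with gavage and 339 ± 27.2 CPM with ethanol alone. Etfb, the beta subunit, averaged 42.3 ± 8.62 CPM with gavage and 74.9 ± 30.7 CPM with ethanol alone, and 67.3% of its 50-base windows occur in the overlapping gene Gm45233, which had 0 counts in all libraries. Gm45233 covers 53% of the exon bases of Etfb on the same strand, so the counting could have left out reads of Etfb.

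For ketogenesis the genes measured here stand at its start and its end. Acat1 (chromosome 9, 53580522 to 53610382), the mitochondrial acetoacetyl-CoA thiolase, had 298 and 437 CPM with gavage, against 487 and 443 CPM with ethanol alone. Gavage replicate 1 was low while the other 3 libraries lay close together (log2 fold change -0.34, SE 0.27, edgeR adjusted p = 0.536). Bdh1 (chromosome 16, 31422280 to 31458901), which reduces acetoacetate to β-hydroxybutyrate, had 185 and 233 CPM with gavage, against 311 and 284 CPM with ethanol alone. Its groups stood further apart than its replicates (log2 fold change -0.51, SE 0.23), with an edgeR adjusted p of 0.305 and a DESeq2 adjusted p of 0.14. The ratio of Bdh1 to Acat1 was 0.62 and 0.534 with gavage, against 0.639 and 0.641 with ethanol alone.

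The omega-oxidation genes, cytochromes P450 of the endoplasmic reticulum that hydroxylate the far end of fatty acids and are strongly induced by PPARα in rodents, were led in level by Cyp4a14 and Cyp4a10, which differed more between the gavage libraries than between treatments. Cyp4a14 (chromosome 4, 115486200 to 115496142) had 220.3 and 1062 CPM with gavage, against 948 and 1152 CPM with ethanol alone. Cyp4a10 (chromosome 4, 115518264 to 115533649) had 76.5 and 374 CPM with gavage, against 347 and 475 CPM with ethanol alone. Gavage replicate 1 was the low library in both genes, 4.82-fold under gavage replicate 2 for Cyp4a14 and 4.89-fold under it for Cyp4a10, while gavage replicate 2 lay within the ethanol-alone range. The log2 fold changes, -0.71 (SE 0.71, edgeR adjusted p = 0.624) and -0.87 (SE 0.72, edgeR adjusted p = 0.551), were thus no larger or little larger than their errors. Without gavage replicate 1 the log2 fold change of Cyp4a14 was 0.02. DESeq2 called both genes lower when gavage replicate 2 was left out.

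Cyp4a31, a close copy, stood at 5.29 and 7.07 CPM with gavage, against 10.3 and 7.57 CPM with ethanol alone, without overlap. Of the 50-base windows of Cyp4a10, 25% occur in Cyp4a32 and 15.3% in Cyp4a31, and 12.8% of those of Cyp4a31 occur in Cyp4a10. With the counts of Cyp4a10, Cyp4a31 and Cyp4a32 summed, the values were 85 and 384 CPM with gavage, against 371 and 487 CPM with ethanol alone (log2 fold change -0.87, SE 0.69, edgeR adjusted p = 0.531). The ratio of Cyp4a10 to Cyp4a14, which share at most 0.2% of windows with other genes on the side of Cyp4a14, was 0.347 and 0.352 with gavage, against 0.366 and 0.412 with ethanol alone, a narrower range than that of either gene.

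**Figure D3:**
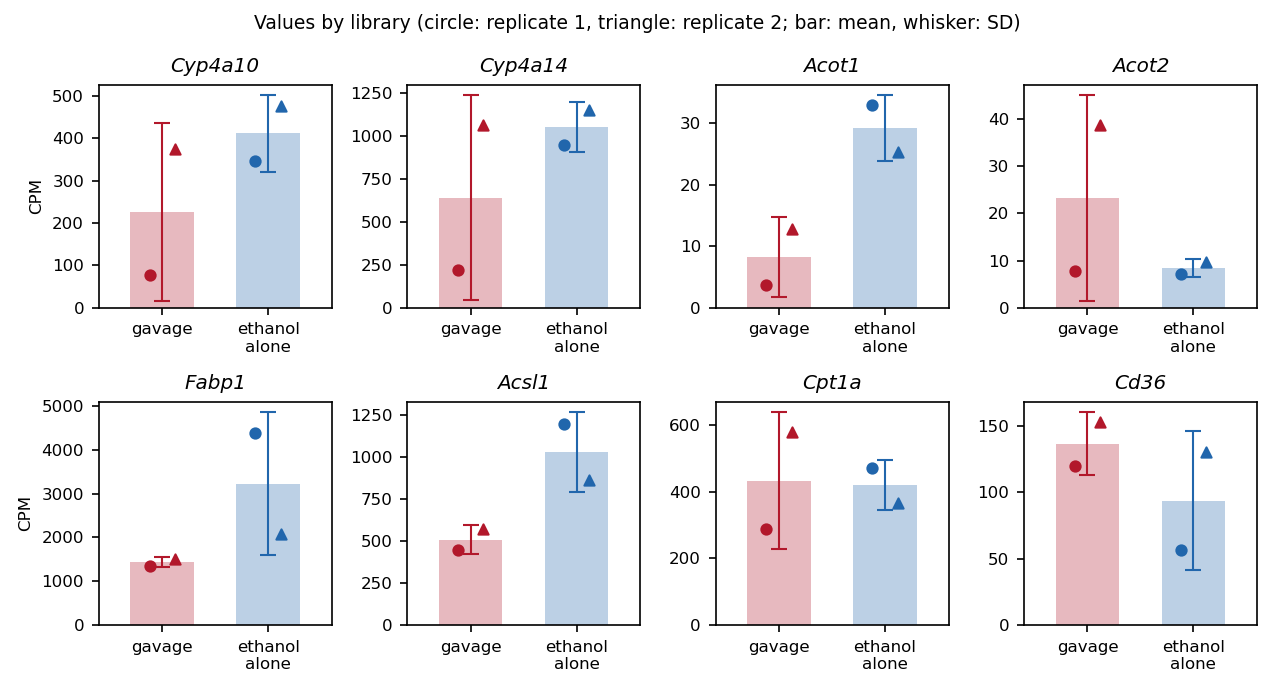
CPM of 8 genes on linear axes from 0, with bars for the mean, whiskers for the SD of 2 libraries, circles for replicate 1 and triangles for replicate 2, gavage in red and ethanol alone in blue. Cyp4a10 and Cyp4a14 are low in gavage replicate 1 (76.5 and 220.3 CPM), Acot2 is high in gavage replicate 2 (38.7 CPM), and Fabp1 is high in ethanol-alone replicate 1 (4381 CPM).

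Creb3l3, a transcription factor of the endoplasmic reticulum membrane that acts with PPARα in fasting, had 243 and 382 CPM with gavage, against 348 and 289 CPM with ethanol alone. Its groups overlapped (log2 fold change -0.03, SE 0.30, edgeR adjusted p = 0.967). Vnn1, a pantetheinase that releases the precursor of coenzyme A and a PPARα target in mouse liver, had 32.2 and 70.4 CPM with gavage, against 42.7 and 89.7 CPM with ethanol alone, with both replicates numbered 1 below both numbered 2 (edgeR adjusted p = 0.724).

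Per kb of merged exon, which allows levels of different genes to be compared, Fabp1 led with 2594 ± 203 CPM per kb with gavage and 5838 ± 2949 CPM per kb with ethanol alone. Acaa2 followed with 390 ± 107 CPM per kb with gavage and 546 ± 91.7 CPM per kb with ethanol alone, then Cyp4a14 and Slc27a2, whose values overlap those of each other in both groups. The lowest of the 34 over all libraries were Cyp4a31, at 2.46 CPM per kb with gavage and 3.57 CPM per kb with ethanol alone, and Hadhb, and Acot1 was as low after gavage, at 2.09 CPM per kb against 7.44 CPM per kb with ethanol alone. The merged exons can be longer than the transcript in use, which lowers such values, so near neighbours in this order are not told apart.

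Other genes of the same pathways came from a list of 70 symbols, also chosen with earlier results known, of which 66 were tested. Their log2 fold change was below 0 in 46 of 66, with a median of -0.38, beside 48.3% and 0.02 for all genes. The edgeR quasi-likelihood test called 0 of them, beside 0% of all genes, with 14 lower and 4 higher at an unadjusted p under 0.05, beside 9.85% and 8.91%. DESeq2 called 9 lower and 4 higher at an adjusted p under 0.05, beside 4.9% and 3.94%. Of these 13 it still called 3 without gavage replicate 1 (Acsl4, Crot and Slc16a6), 6 without gavage replicate 2, 7 without ethanol-alone replicate 1 and 11 without ethanol-alone replicate 2. Between the libraries numbered 2 the log2 ratio of the 9 lay between -1.16 for Crot and -0.54 for Slc27a5, and that of the 4 between 1.08 for Aacs and 6.00 for Cidec.

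Crot, the peroxisomal carnitine octanoyltransferase, averaged 385 ± 87.3 CPM with gavage and 1116 ± 163 CPM with ethanol alone (DESeq2 adjusted p = 7.15e-07). Ehhadh, the peroxisomal bifunctional enzyme, averaged 189 ± 4.84 CPM with gavage and 413 ± 19.4 CPM with ethanol alone (DESeq2 adjusted p = 1.03e-07). Ivd and Acad8, dehydrogenases of leucine and valine breakdown, had log2 fold changes of -1.07 (SE 0.30) and -0.94 (SE 0.23), and the omega-hydroxylase genes Cyp4f14 and Cyp4f15 -1.20 (SE 0.26) and -0.84 (SE 0.23). The same test called Slc27a5, a synthetase of bile and very long-chain acids (-0.76, SE 0.24), Acot13, a thioesterase (-1.01, SE 0.20), and Bdh2, a second hydroxybutyrate dehydrogenase gene (-1.04, SE 0.23).

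Of the 4 genes called higher, Acsl4, a synthetase that prefers arachidonic acid, averaged 221 ± 21.5 CPM with gavage and 77.4 ± 14.3 CPM with ethanol alone (log2 fold change 1.52, SE 0.24; DESeq2 adjusted p = 7.58e-08), opposite in sign to Acsl1. Aacs, the cytosolic acetoacetyl-CoA synthetase that returns ketone bodies to lipid synthesis, averaged 120 ± 1.05 CPM with gavage and 53.5 ± 3.93 CPM with ethanol alone (DESeq2 adjusted p = 4.77e-07). Slc16a6, known in zebrafish as an exporter of β-hydroxybutyrate from hepatocytes, averaged 60.1 ± 22.6 CPM with gavage and 15.5 ± 6.71 CPM with ethanol alone (DESeq2 adjusted p = 1.57e-04). Cidec, a lipid droplet protein, had 15.7 and 33.9 CPM with gavage, against 3.66 and 0.529 CPM with ethanol alone (DESeq2 adjusted p = 0.0496), and it was not called when either gavage library was left out. None of these 4 passed edgeR's test over all genes with the libraries as grouped, where their adjusted p-values ran from 0.128 to 0.177.

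Some other regulators and enzymes differed by library more than by treatment. Ppara, the gene of PPARα, had 168 and 125.7 CPM with gavage, against 107 and 125.4 CPM with ethanol alone (log2 fold change 0.34, SE 0.24, edgeR adjusted p = 0.479). Its groups did not overlap, but the replicates numbered 2 nearly met. Pdk4, which restrains pyruvate dehydrogenase, had 82.6 and 12.1 CPM with gavage, against 30.2 and 17 CPM with ethanol alone, and was high in gavage replicate 1. The summed skeletal muscle markers ranked the libraries in the same order, at 916 and 1.33 CPM with gavage, against 437 and 12.6 CPM with ethanol alone. How much of the Pdk4 RNA came from muscle was not tested. Lpin1, a coactivator of PPARα and a phosphatidate phosphatase, had 282 and 299 CPM with gavage, against 749 and 142 CPM with ethanol alone. Angptl4, an inhibitor of lipoprotein lipase, had 123 and 118 CPM with gavage, against 254 and 78.4 CPM with ethanol alone, and Fgf21, a fasting hormone of the liver, 3.57 and 11 CPM with gavage, against 5.49 and 3.37 CPM with ethanol alone. Acss1, a mitochondrial acetyl-CoA synthetase, stood at 2.36 and 0.299 CPM with gavage, against 1.03 and 0.33 CPM with ethanol alone, the same order of libraries as for Pdk4. In each of these 5 genes the libraries of a group differed by 3-fold or more, and the groups overlapped.

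**Figure D4:**
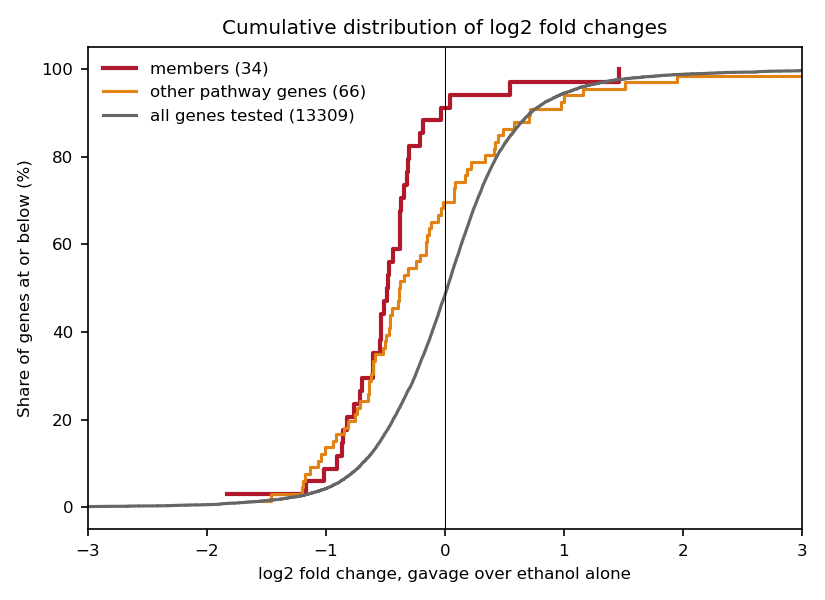
Share of genes at or below each log2 fold change of gavage over ethanol alone, for the 34 genes (red), the 66 other pathway genes tested (orange) and all 13309 genes tested (grey); Cidec, at 3.57, lies beyond the right edge. At 0 the red curve stands at 91.2%, the orange at 69.7% and the grey at 48.3%.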

How the data were processed

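Liver messenger RNA of 4 libraries was analysed. The deposited values are the authors' raw counts per gene symbol, a column for each library. Named without roles in the submitters' processing notes are GRCm38 and the tools STAR 2.6.0a, HTSeq, edgeR and bcl2fastq 2.20.0.422. Not given in the sources used here are the annotation, the strand setting and how reads with several positions were counted. Counts were tested in R 4.3.3 with edgeR 4.0.16 over the whole table: filterByExpr by group (minimum count 10, minimum total 15), TMM, and the 2-sided quasi-likelihood test with Benjamini-Hochberg adjustment over 13309 genes, threshold 0.05. The SE is the absolute log2 fold change over the square root of F. The common dispersion was 0.0966. Replicates differed beyond sampling noise (chi-square per degree of freedom 135 with gavage and 126 with ethanol alone). DESeq2 1.42.0, a replicate block, other scalings and filters, and each library left out were alternatives; scripts were tested on simulated data.

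A floor of 3 counts corresponds to 0.0989 to 0.104 CPM and covers counting error only. Coordinates, exon lengths, exon overlaps and shared 50-base windows came from GENCODE M21 on GRCm38, and promoters from RefSeq. The genes and lists were chosen with earlier results of these data known. Named in full were genes at an unadjusted p under 0.05 or called by DESeq2, the most abundant gene of each role, genes whose libraries of a group differed by 3-fold or more, and Cpt1a, Acat1 and Bdh1; other pathway genes were named when called by DESeq2 or differing by 3-fold within a group. Dvl2, Gm13910, Gm45233, Slc22a21 and Ppara were added after their values were seen.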

Additional observations from a re-analysis of the deposited data

How the results depend on the processing

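With 2 libraries a group and a coefficient of variation of 0.311 between replicates, no difference among the 34 genes passed edgeR's adjusted test. The quasi-likelihood test called 0 of the 34 genes at an adjusted p under 0.05 under DESeq2's size factors, library totals, no filter, a stricter filter, the replicate block, summed copies and each library left out. DESeq2 called 6 of the 34, and without 1 library 0 to 6 (1 without gavage replicate 1, 4 without gavage replicate 2, 0 without ethanol-alone replicate 1, 6 without ethanol-alone replicate 2). Of the other pathway genes, edgeR called 0, the replicate block 3 (Aacs, Acsl4 and Slc16a6) and DESeq2 13. The share of all genes called was 0% with edgeR, 3.08% with the block and 8.84% with DESeq2. DESeq2 without 1 library called 3 to 21 of the other pathway genes (3 without gavage replicate 1, 9 without gavage replicate 2, 8 without ethanol-alone replicate 1, 21 without ethanol-alone replicate 2). The shares of all genes called in these fits, given in Results, ranked the fits in the same order. The range from 3 to 21 thus went with the share called over the whole table.

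At an unadjusted p under 0.05, 6 of the 34 lay lower, against 10 with the replicate block and 13 with DESeq2. In edgeR without 1 library, fewer lay lower when gavage replicate 1 or ethanol-alone replicate 1 was left out. More lay lower when gavage replicate 2 or ethanol-alone replicate 2 was left out. The share of all genes lower at that level was 9.85% with edgeR, 12.2% with the block and 10.9% with DESeq2. It fell without gavage replicate 1, gavage replicate 2 or ethanol-alone replicate 1, and rose without ethanol-alone replicate 2. Without gavage replicate 2 the count and the share thus moved in opposite directions. Higher were 0, against 2 with the block and 1 with DESeq2. The share of all genes higher at that level was 8.91% with edgeR, 12.7% with the block and 9.15% with DESeq2. Of the other pathway genes 14 lay lower, 23 with DESeq2 and 6 (without gavage replicate 1) to 29 (without ethanol-alone replicate 2) without 1 library. The whole table held 0 calls in edgeR (2497 genes at an unadjusted p under 0.05), 410 with the block, 1177 with DESeq2, 31 without gavage replicate 2 and 12 without ethanol-alone replicate 2. Same-numbered libraries deviated together (correlation 0.492), but with 2 pairs the numbers are not taken to pair the samples.

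The median log2 fold change of the 34 was -0.77 to -0.23 without 1 library, -0.79 within the libraries numbered 1 and -0.17 within those numbered 2, while the other alternatives left it within 1 SD (0.274) of -0.48. The last 2 settings, summed copies and DESeq2 without a library were chosen after seeing the data. Log2 fold changes changed sign in 13 of 340 settings of single genes, none of them past a threshold; the cause was not tested. Without 1 library the ranges were -0.11 to 2.199 for Acot2, -0.54 to 0.10 for Slc22a5, -0.55 to 0.46 for Cpt1a, -0.51 to 0.041 for Acadl, -0.77 to 0.041 for Acad11, -2.26 to 0.018 for Cyp4a14, -0.40 to 0.26 for Creb3l3 and -1.05 to 0.20 for Vnn1. Cpt1a was at -0.028 with the replicate block and Creb3l3 at 0.0435 under library totals.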
